A study of Homo sapiens with 8 samples.

Results

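SMAD1, SMAD2, SMAD4, SMAD7 and TGIF1 are 4 SMAD genes and a SMAD corepressor gene with regions listed as bound by the translation initiation factor eIF4G2 in human cardiac fibroblasts. Their regions were taken from the authors' deposited lists as every region that lay inside, overlapped an end of, or included a transcript of one of these genes, counted once per region and gene. This gave 36 regions of 3210, of which 35 belonged to the list for overexpressing cells (1986 regions) and 1 to the list for control cells (1224 regions). The 5 genes are among 861 genes with a region in either list.

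IHCF cells, an established line of immortalized cardiac fibroblasts, received either a lentivirus that overexpresses eIF4G2 or one with a scramble control vector. From both, RNA pulled down with an antibody to eIF4G2 was sequenced (RIP-seq), with 2 bioreplicates of bound RNA and 2 of total RNA per condition, 8 libraries in all; the labels give the antibody for the total RNA too. The lists hold 1 set of regions per condition and no count, score or value per replicate. Sequencing depth is unknown for that reason, a difference between conditions cannot be tested, and the absence of a region does not show the absence of binding.

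SMAD proteins carry signals of the TGF-beta family from the cell surface to the nucleus. Activated receptors phosphorylate a receptor-regulated SMAD (SMAD2 and SMAD3 for TGF-beta and activin, SMAD1, SMAD5 and SMAD9 for bone morphogenetic proteins, BMPs), which joins SMAD4 and enters the nucleus to control transcription. SMAD6 and SMAD7 act against the receptors, and TGIF1 is a homeodomain corepressor that holds SMAD2-driven transcription back. In fibroblasts TGF-beta signalling is known as a main inducer of the myofibroblast state and of matrix production. eIF4G2 is a relative of the scaffold factor eIF4G1 that does not bind the cap-binding protein eIF4E, and it is known for roles in translation that does not follow the usual cap-dependent route.

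SMAD2, SMAD4, SMAD7 and TGIF1 lie on chromosome 18, where the overexpression list had 1339 regions and the control list had 0. Of its 270 protein-coding genes, 161 (59.6%) were listed under overexpression and 0 (0%) under control. Being listed under overexpression alone was thus the common state on this chromosome, and the 4 genes shared it with most of its coding genes. SMAD1 lies on chromosome 4, where both lists had regions. There 332 of 770 protein-coding genes (43.1%) were listed under control, 210 (27.3%) under overexpression and 185 (24.0%) under both. Each of the 5 genes is longer than 30 kb. Among coding genes of at least 30 kb, 118 of 183 on chromosome 18 (64.5%) were listed under overexpression, and on chromosome 4 the shares were 52.0% under control and 32.2% under overexpression. The condition of each list was taken from its table's name, the only source for it, and both names carry "mov10" (MOV10 is an RNA helicase), which the sample labels do not mention. None of 13 fibroblast marker genes and none of 10 markers of other heart and blood cells had a region. Only 2 and 1 of these lie on chromosomes 4, 10 or 18, which carry nearly all regions, so the lists do not check the labelled cell type.

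**Figure D1:**
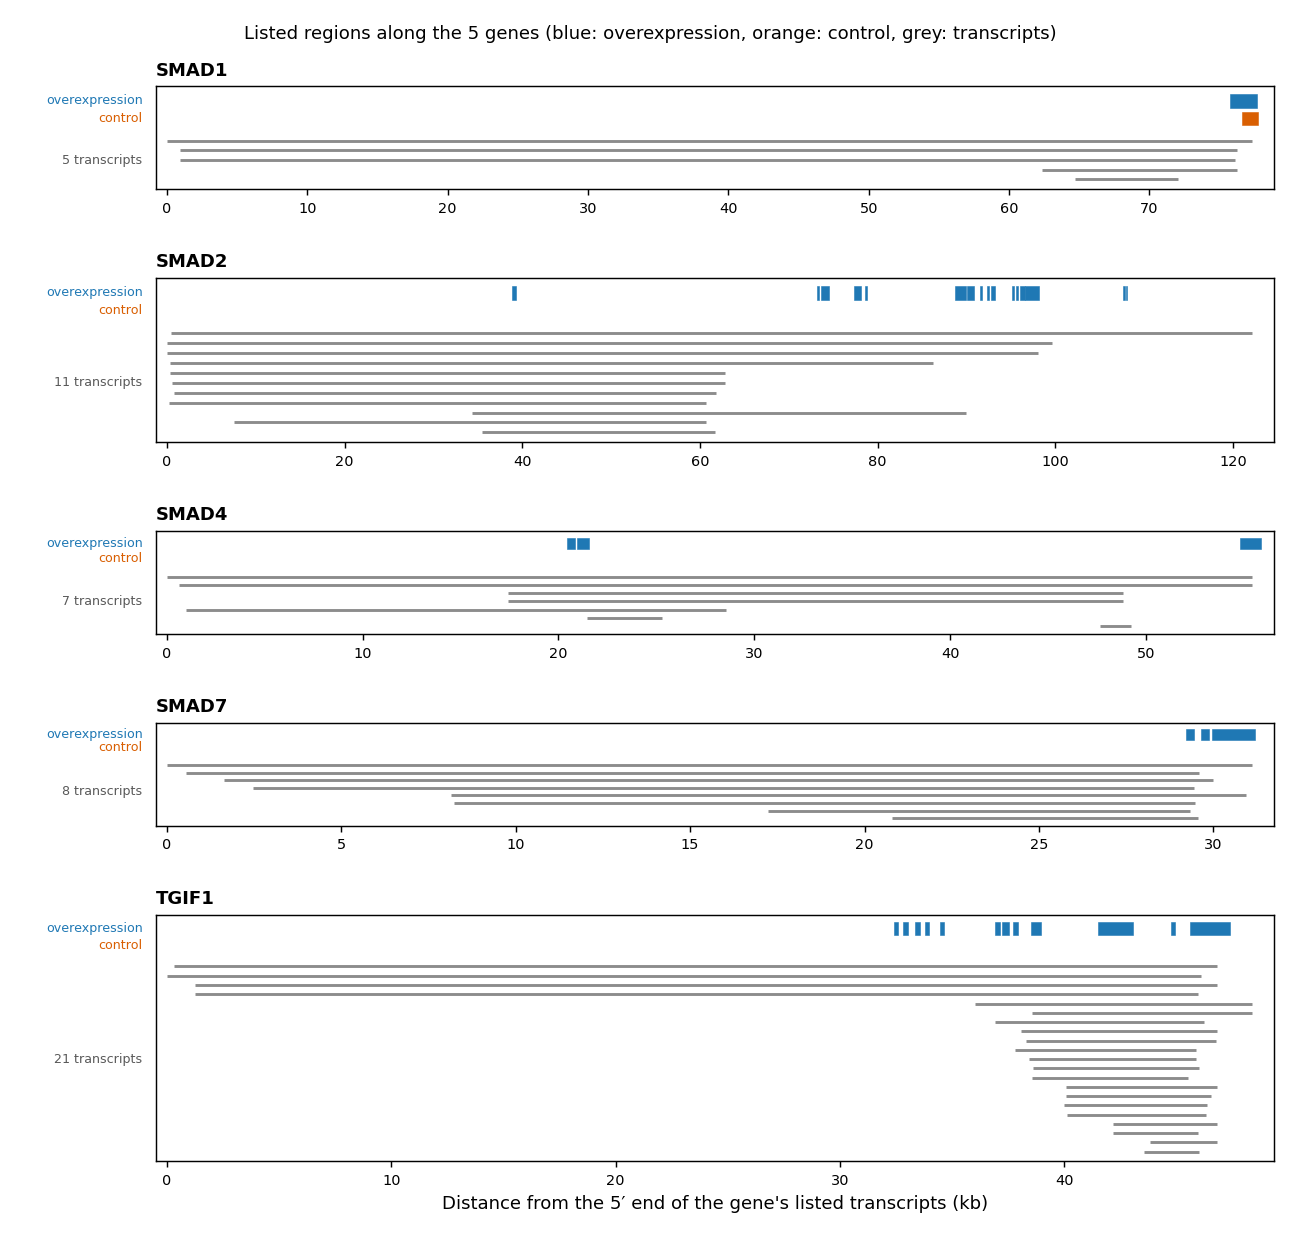
Regions of the overexpression list (blue) and the control list (orange) along SMAD1, SMAD2, SMAD4, SMAD7 and TGIF1, with the listed Ensembl transcripts in grey; the horizontal axis is the distance in kb from the outermost 5′ end, to a different scale for each gene. The regions of SMAD1 and SMAD7 sit at the 3′ end, those of SMAD2 between 38.8 and 108 kb, and those of TGIF1 from 32.4 kb on.

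SMAD2, the receptor-regulated SMAD of TGF-beta and activin, held the most regions of the 5 genes. The overexpression list gave it 16 regions, summing to 8460 bp, and the control list 0. The gene (ENSG00000175387) occupies chr18:47808957-47931146 on the minus strand of GRCh38, 122 kb over its 11 listed transcripts, and its regions covered 6.92% of that span. Among the 161 protein-coding genes of chromosome 18 with a region, SMAD2 ranked 16 by number of regions and 14 by summed width, against medians of 5 regions and 3020 bp. It ranked 46 by gene length and 55 by the share of its span covered (median 4.16%). Its place by number and by summed width was thus higher than its place by share of the span. The coding genes on either side of SMAD2, the transcriptional regulator genes SKOR2 (557 kb away) and ZBTB7C (95.8 kb away), had 0 regions in both lists.

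The regions of SMAD2 fell into 6 groups when those up to 1000 bp apart were joined. From the 5′ end, the first was 1 region of 410 bp at chr18:47891896-47892305, 38.8 kb into the gene and inside all 11 listed transcripts. No further region followed for 34.0 kb. A pair of groups with 2 regions each then lay at 73.2 to 74.5 kb and 77.3 to 78.8 kb. The most crowded stretch came next, with 5 regions at 88.7 to 93.2 kb and 4 regions at 95.2 to 98.2 kb, and the last 2 regions lay at 108 kb. The widest regions of SMAD2 were in the crowded stretch: 1505 bp at chr18:47832986-47834490 and 1290 bp at chr18:47841156-47842445. Each of these holds the 3′ end of 1 listed transcript, ENST00000356825 and ENST00000586040. The 3′ end of ENST00000402690 lay 1.44 kb past the nearest region.

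The longest SMAD2 transcript, ENST00000262160, runs on beyond those ends, and it alone contains the last 2 regions, chr18:47823016-47823220 (205 bp) and chr18:47823311-47823525 (215 bp). Its own 3′ end lay 14.1 kb past the nearest region. No region of SMAD2 (0 of 16, 95% Wilson interval 0 to 19.4%) had its midpoint in the last 10% of the gene span. Among other protein-coding genes of chromosome 18 that share was 31.3% (365 of 1166 pairs of region and gene, 28.7 to 34.0%), and 123 of 157 such genes (78.3%) had at least 1 region there. The intervals cover counting error only, and regions of 1 gene are not independent, so the contrast is a description of these lists. The share for SMAD2 depends on how far the span reaches, since only 2 of its 11 transcripts run past 98.2 kb.

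One SMAD2 region, chr18:47852981-47853840 (860 bp), also includes MTCO2P2, a nuclear pseudogene copy of the mitochondrial cytochrome oxidase gene MT-CO2, at chr18:47853233-47853457. The pseudogene takes up 225 bp, 26.2% of the region. Reads from near-identical copies cannot always be told apart, and the part of MT-CO2 reads in this region was not tested. On the mitochondrial chromosome the overexpression list had 0 regions and the control list 2, over MT-ND6 and MT-CYB. Without that region SMAD2 had 15 regions.

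SMAD1, the receptor-regulated SMAD of BMP signals, was the 1 gene of the 5 with a region in both lists. The gene (ENSG00000170365) lies at chr4:145481853-145559176 on the plus strand, 77.3 kb over 5 listed transcripts. The control region was chr4:145558441-145559600 (1160 bp) and the overexpression region chr4:145557581-145559515 (1935 bp). Both lay at the 3′ end of the gene, and they shared 1075 bp, which is 92.7% of the control region and 55.6% of the overexpression region. The overexpression region began 860 bp further upstream. It held the 3′ ends of 4 of the 5 transcripts, while the control region held only that of the transcript with the outermost end, ENST00000302085. Past that end, 424 bp of the control region and 339 bp of the overexpression region lay outside the gene as annotated.

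Wider coverage in the overexpression list was the less common state among chromosome 4 genes with regions under both conditions. The ratio of summed width in the overexpression list to that in the control list was 1.67 for SMAD1, against a median of 0.560 over the 185 protein-coding genes in both lists. In 45 of these genes (24.3%) the overexpression list had the larger width, and SMAD1 ranked 13 from the highest. Of the 18 genes with exactly 1 region in each list, the regions of 15 (83.3%) overlapped. The 2 lists differ on this chromosome, with 1185 regions under control and 491 under overexpression. The smallest widths in other genes were 200 and 400 bp. Genes in both lists had a median of 3 control and 2 overexpression regions. Their ratios thus also carry the number of regions listed, while SMAD1 had 1 in each. With 1 region in each list, the ratio for SMAD1 has no replicate check. The protein-coding genes on either side of SMAD1 had regions in the control list only: OTUD4, a deubiquitinase gene, had 4 (4985 bp) and MMAA, a gene of cobalamin metabolism, had 1 (1360 bp).

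SMAD4, the common partner of the receptor-regulated SMADs, had 3 regions in the overexpression list that summed to 2120 bp, and 0 in the control list. The gene (ENSG00000141646) lies at chr18:51029614-51085045 on the plus strand, 55.4 kb over 7 listed transcripts. One region, chr18:51084431-51085505 (1075 bp), covered the 3′ ends of the 2 longest transcripts and ran 460 bp past the outermost one. The other 2 lay close together at 20.4 to 21.5 kb, at chr18:51050031-51050460 (430 bp) and chr18:51050536-51051150 (615 bp). The second of that pair holds the 5′ end of the short transcript ENST00000585448.

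The inner pair of SMAD4 cannot be given to SMAD4 alone. Both regions also lie inside an unnamed gene (ENSG00000267699) that runs on the same strand at chr18:50968019-51058144 and had 9 regions in all. The 3′ region touched no gene other than SMAD4. The neighbouring coding genes ELAC1, a tRNA 3′ processing enzyme gene, and MEX3C, an RNA-binding ubiquitin ligase gene, had 2 regions (1405 bp) and 3 regions (2290 bp) in the same list. SMAD4 ranked 111, tied with SMAD7, by number of regions among the 161 listed coding genes of the chromosome, below the median of 5 regions.

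SMAD7, the inhibitor that blocks receptor-regulated SMADs at the receptor, also had 3 regions in the overexpression list, 1660 bp in all, and 0 in the control list. The gene (ENSG00000101665) lies at chr18:48919853-48950965 on the minus strand, 31.1 kb over 8 listed transcripts. All 3 regions lay within the last 10% of the span, in 1 group of 1980 bp between 29.2 and 31.2 kb from the 5′ end. The widest, chr18:48919766-48920995 (1230 bp), made up 74.1% of the summed width. It held the 3′ ends of 3 transcripts and reached 87 bp past the outermost end. The other 2, chr18:48921101-48921315 and chr18:48921531-48921745, were 215 bp each, and the second held 2 further 3′ ends. The remaining 3 transcripts ended within 30, 57 and 96 bp of a region. Unlike in SMAD2, then, all regions of SMAD7 stood next to the outermost 3′ end of the gene. In both genes, 2 regions held a listed 3′ end. Its neighbours CTIF, a translation factor gene of the nuclear cap-binding complex, and DYM had 11 regions (7425 bp) and 8 regions (3515 bp).

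TGIF1, the corepressor gene, was the most densely covered of the 5. It had 12 regions in the overexpression list, 5745 bp in all, and 0 in the control list. The gene (ENSG00000177426) lies at chr18:3411608-3459978 on the plus strand, 48.4 kb over 21 listed transcripts, and 11.9% of that span was covered, at 2.48 regions per 10 kb. For SMAD2 the density was 1.31, for SMAD7 0.964, for SMAD4 0.541 and for SMAD1 0.129 regions per 10 kb. In the overexpression list, regions in other genes of chromosome 4 were at least 400 bp wide. On chromosome 18, 48.2% of regions in other genes were 205 or 215 bp wide. The density of SMAD1 is thus not on equal terms with the others. With regions of at least 400 bp only, TGIF1 had 3 and SMAD2 8, so the lead of TGIF1 in density rests on narrower regions. Among the 161 listed coding genes of chromosome 18, TGIF1 ranked 24 by number of regions, 30 by summed width and 38 by the share of its span covered, while it ranked 93 by length.

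The TGIF1 transcripts begin at many places, and its regions began before most of these starts. Of the 21 transcripts, 4 start at the far 5′ end and the other 17 start more than 30 kb further on. The first 32.4 kb of the gene had no region. The first 5 regions, from chr18:3444001-3444205 to chr18:3446051-3446255, were 205 or 215 bp wide and lay inside only the 4 long transcripts, upstream of every other start. The next 4 lay between 36.9 and 39.0 kb, a stretch that holds the starts of 7 of those 17 transcripts. Regions 8 and 9 of the gene, chr18:3449331-3449535 (205 bp) and chr18:3450106-3450560 (455 bp), held the starts of 1 and 3 transcripts. Region 10, chr18:3453116-3454660 (1545 bp), held 2 more. The last and widest region, chr18:3457201-3458965 (1765 bp), held the 3′ ends of 18 of the 21 transcripts. The 2 transcripts with the outermost 3′ end, ENST00000618001 and ENST00000343820, ended 1.01 kb past it. Its neighbours MYL12B, a myosin light chain gene, and DLGAP1, a scaffold protein gene, had 8 regions (3940 bp) and 10 regions (5470 bp).

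**Figure D2:**
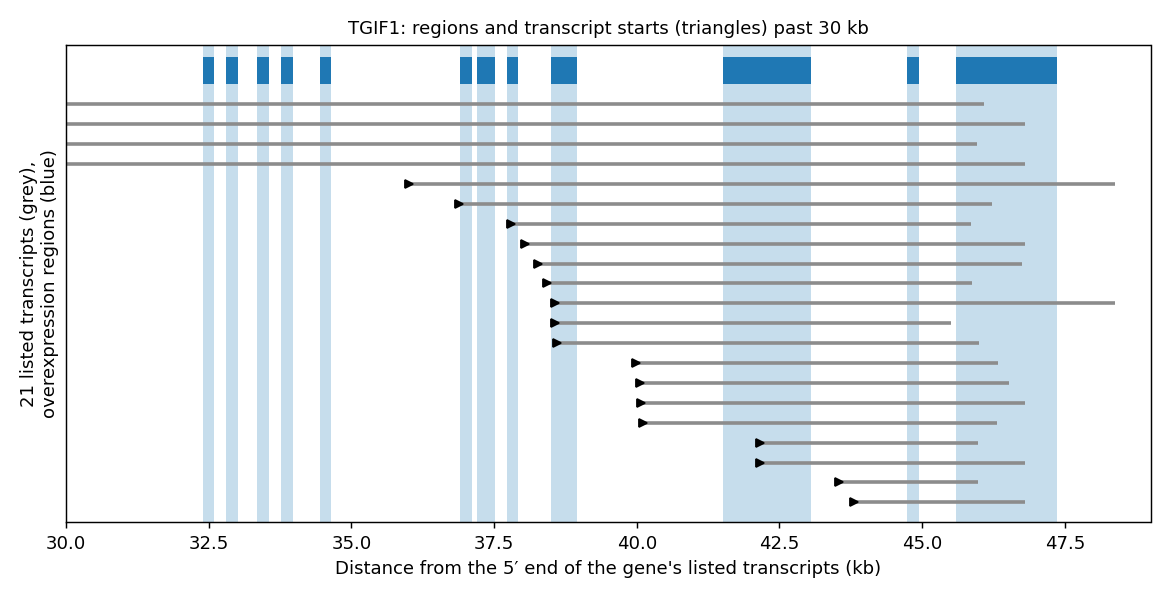
The 3′ part of TGIF1, with the 12 regions of the overexpression list (blue bars and bands) over the 21 listed transcripts (grey, triangles at starts); the horizontal axis is the distance in kb from the outermost 5′ end of the gene. The first 5 regions lie before every start drawn, and 6 transcripts start inside a region.

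TGIF1 was also the only one of the 5 genes with a region over a start window of RefSeq. These windows run from 250 bases before to 50 bases after an annotated start (GRCh38.p14). Regions touched 3 of the 7 windows of TGIF1, 0 of 5 for SMAD1, 0 of 2 for SMAD2, 0 of 1 for SMAD4 and 0 of 3 for SMAD7. Of the 3 touched windows, 2 overlap and are touched by the same region, which ends before both of their RefSeq starts. Of all 365 windows of protein-coding genes on chromosome 18, 39 (10.7%) were touched by a region, in 28 of 234 genes (12%). These genes include some without any region, while each of the 5 genes has one, so the backgrounds are not alike. The share among listed genes alone was not computed. The 250 bases before the start are printed for 2 of the touched TGIF1 windows to show where the regions reach. The bases that lie in a region are in capitals. The first window is chr18:3449318-3449567 and the second chr18:3449922-3450171, both on the plus strand, 5′ to 3′, from RefSeq.
TGIF1 start at 3449568: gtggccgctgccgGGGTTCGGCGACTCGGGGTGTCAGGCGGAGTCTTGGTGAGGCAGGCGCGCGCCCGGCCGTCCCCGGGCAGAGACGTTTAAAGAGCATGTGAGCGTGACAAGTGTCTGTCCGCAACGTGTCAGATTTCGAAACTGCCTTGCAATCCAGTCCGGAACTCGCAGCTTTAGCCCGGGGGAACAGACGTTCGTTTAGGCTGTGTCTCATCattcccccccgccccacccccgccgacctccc
TGIF1 start at 3450172: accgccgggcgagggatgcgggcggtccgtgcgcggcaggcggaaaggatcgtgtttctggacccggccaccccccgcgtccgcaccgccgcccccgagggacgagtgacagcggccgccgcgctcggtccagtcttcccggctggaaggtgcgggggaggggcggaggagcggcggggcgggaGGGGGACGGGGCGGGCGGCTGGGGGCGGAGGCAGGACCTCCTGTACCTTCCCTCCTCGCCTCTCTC
In the first window 205 bases lay in region 8. In the second, the last 66 bases lay in region 9, which continued past the start. The second window had a GC content of 77.2% and the first 64.4%, against a median of 58.0% over all RefSeq windows. The touched window that is not printed had 63.2%. Windows of the 5 genes without a region ranged from 35.2% to 84.4%, so a high GC content was not limited to touched windows.

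Letters known as binding motifs of SMAD4 and TGIF1 on DNA were searched on both strands of the 250 bases. They were CAGAC (reverse complement GTCTG) for SMAD4 and TGTCA (reverse complement TGACA) for TGIF1. The first window held CAGAC 2 times and TGTCA 3 times, all within the capitals and with 0 overlapping matches. The second held CAGAC 0 times and TGTCA 1 time, outside the capitals. The other touched window, chr18:3449457-3449706, overlaps the first and held CAGAC 1 time, in its 79 bases within the region, and TGTCA 1 time, outside them. Of the 4 TGIF1 windows without a region, 2 held CAGAC, 2 times each, and 1 held TGTCA, so the motifs were not limited to windows with a region. Of all 35116 windows, 38.0% held CAGAC and 34.0% held TGTCA. Matches of this length are frequent, and they describe the DNA of the start, not the RNA.

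**Figure D3:**
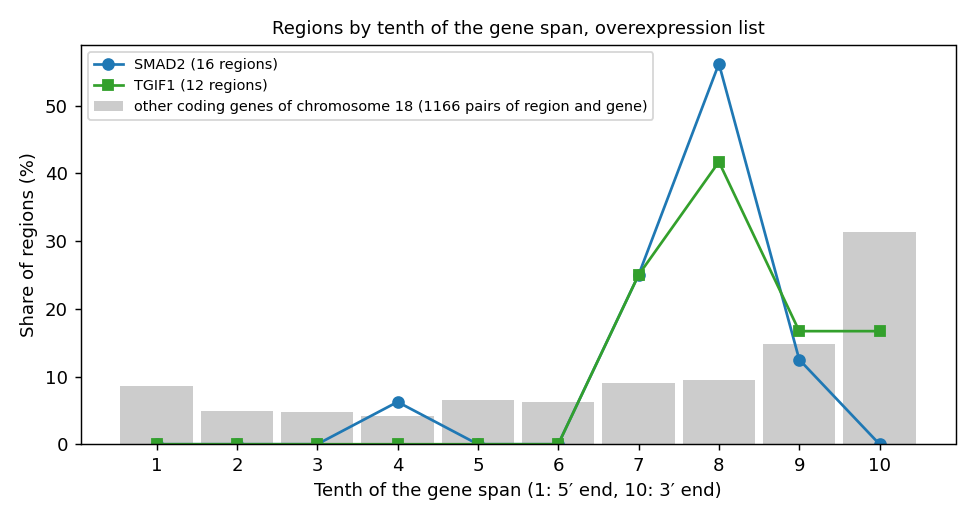
Share of regions (%, vertical axis) by 10% steps of the gene span from the 5′ end (1) to the 3′ end (10) in the overexpression list, for SMAD2 (line with circles), TGIF1 (line with squares) and other protein-coding genes of chromosome 18 (grey bars, 1166 pairs of region and gene). SMAD2 and TGIF1 both have their largest share in step 8 (56.2% and 41.7%), while the other genes have theirs in step 10 (31.3%).

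Along the gene span, SMAD2 and TGIF1 had similar profiles. In steps of 10% of the span, 9 of 16 SMAD2 regions (56.2%) and 5 of 12 TGIF1 regions (41.7%) lay in step 8, where other protein-coding genes of the chromosome had 9.43% of theirs. Step 8 was named because it is the peak of both genes, and the other share is pooled over many genes. The contrast thus partly follows from that choice. The 9 SMAD2 regions are its groups of 5 and 4 neighbouring regions. The span joins all listed transcripts of a gene, so the same step need not be the same place along transcripts. In step 8, 2 SMAD2 regions held a transcript 3′ end, and 1 TGIF1 region held a transcript start. TGIF1 had 2 of 12 (16.7%, 4.70 to 44.8%) in the last step. Likeness was measured as the summed absolute difference of the shares over the 10 steps, from 0 for equal profiles to 2 for separate ones, against 95 coding genes of chromosome 18 with at least 5 regions. The gene most like SMAD2 was TGIF1 (0.417), followed by NPC1, a cholesterol transporter gene (0.500), and the contractility kinase gene ROCK1 (0.650), against a median of 1.64. The genes most like TGIF1 were SMAD2 (0.417), RBBP8, a DNA repair gene (0.424), and ROCK1 (0.467), against a median of 1.33. With 12 and 16 regions a profile is coarse, and compared genes with fewer regions have coarser ones. The genes named as most alike had 11 to 40 regions. How far the number of regions sets the difference was not tested.

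Taken over the 4 genes of chromosome 18, 6 of 34 regions (17.6%, 8.35 to 33.5%) lay in the last 10% of the span. In other coding genes of the chromosome the share was 31.3%. Without the regions of SMAD2 it was 33.3% in place of 17.6%. The interval covers counting error only, and regions of the same gene are not independent. It therefore cannot decide whether the 4 genes differ from the others. A listed 3′ end lay inside 6 of the 34 regions (17.6%, 8.35 to 33.5%) and inside 233 of 1166 in other genes (20.0%, 17.8 to 22.4%). The outermost 3′ end of the gene was covered in SMAD1, SMAD4 and SMAD7 and not in SMAD2 and TGIF1, and in 77 of 157 other listed coding genes of chromosome 18 (49%). The position of a region within exons or introns was not analysed here, since the tables give only the ends of transcripts.

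**Figure D4:**
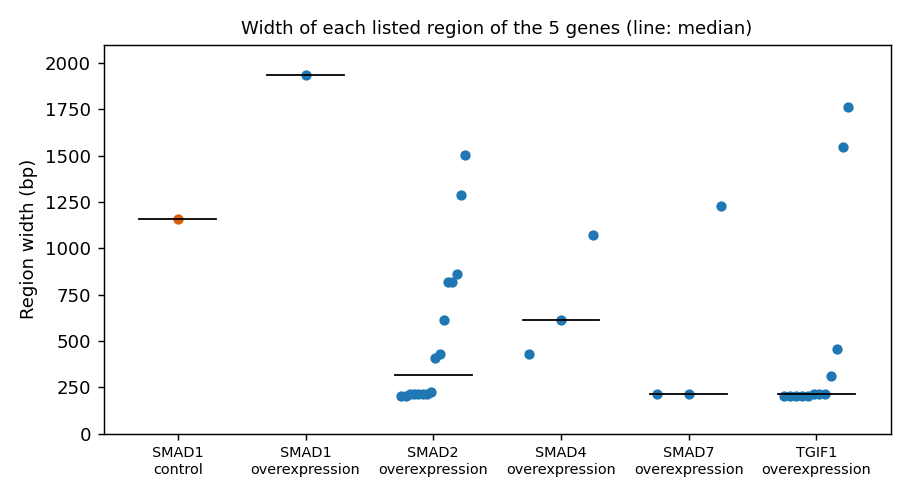
Width in bp of each region (points) by gene and list, with the median as a line. Of the SMAD2 regions 7 of 16 are 205 or 215 bp wide and 8 are at least 400 bp. For TGIF1 these counts are 8 and 3 of 12. The 2 regions of SMAD1 are 1160 and 1935 bp wide.

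The regions of the 4 genes on chromosome 18 ranged from narrow to wide. Of the 34, 17 were 205 or 215 bp wide, the smallest widths on this chromosome, and 6 (17.6%) were at least 1000 bp. Of 1105 other regions in coding genes of chromosome 18, 533 (48.2%) and 153 (13.8%) were. The median was 220 bp, against 250 bp for these other regions. The widths of SMAD2 ran from 205 to 1505 bp with 7 of 16 at 205 or 215 bp, and those of TGIF1 from 205 to 1765 bp with 8 of 12. The shares of narrow and wide regions in the 4 genes thus lay close to those of the chromosome.

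On chromosome 18 the ends of the listed regions fall on multiples of 205 bp or of 215 bp, and in the control list the most frequent steps were 200 and 215 bp. The meaning of these steps is not given in the sources used here. On chromosome 18, 13 of the 34 regions had both ends on the 205 bp steps, 16 on the 215 bp steps and 5 (14.7%) had 1 end on each. Of the 1305 other regions of the chromosome, 27.0% had 1 end on each. In TGIF1 this held for 4 of 12 regions, which were its 4 widest, in SMAD2 for 1 of 16, and in SMAD4 and SMAD7 for 0 of 3. Regions of 205 or 215 bp are 1 step wide and so have both ends on the same steps. In TGIF1 8 of 12 were that narrow, so the link with width partly follows from the steps. The overexpression region of SMAD1 had both ends on 215 bp steps, and its control region began on a 215 bp step and ended on a 200 bp step.

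**Figure D5:**
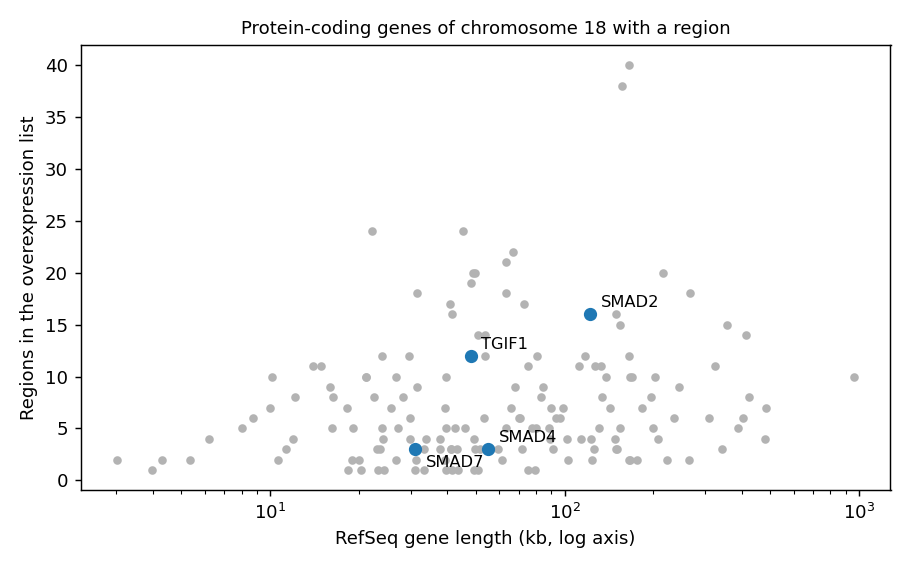
Number of regions in the overexpression list (vertical axis) against RefSeq gene length (kb, log axis) for the 161 protein-coding genes of chromosome 18 with a region, with SMAD2, SMAD4, SMAD7 and TGIF1 in blue. SMAD2 (16 regions) and TGIF1 (12) lie above the median of 5 regions and SMAD4 and SMAD7 (3 each) below it.

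Of the 80 genes taken for TGF-beta and BMP signalling (ligands and their binding proteins, receptors, SMADs, corepressors, ubiquitin and anchoring factors, and targets), 8 were listed under overexpression and 1, SMAD1, under control. Over all protein-coding genes the shares were 2.31% and 1.81%. The 80 genes were chosen with the regions of the 5 genes known, and 15 of them lie on chromosomes 4, 10 and 18, so their counts follow from that choice and are given as a description. On chromosome 18, 5 of 6 had a region, against 59.6% of all its coding genes. The fifth was NEDD4L, a ubiquitin ligase that acts on activated SMAD2, with 15 regions (8825 bp). The sixth, LDLRAD4, a membrane protein that restrains SMAD phosphorylation, had 0. On chromosome 4, SMAD1 was listed, and the ligand gene BMP3 and the receptor gene BMPR1B had 0 in both lists. On chromosome 10, 4.09% of coding genes were listed under control and 9.13% under overexpression. There FBXL15, a ubiquitin ligase subunit of the BMP pathway, had 1 region in the overexpression list (4305 bp), which it shares with other genes, and 5 others, the ligand genes GDF2, GDF10 and NODAL, the receptor gene BMPR1A and the decoy receptor gene BAMBI, had 0. Elsewhere, USP9X, a deubiquitinase that acts on SMAD4, had 5 regions (1620 bp) on chromosome X.

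The other SMAD genes had 0 regions in both lists. SMAD3 and SMAD6 lie on chromosome 15 and SMAD5 on chromosome 5, and both lists had 0 regions on those chromosomes. SMAD9 lies on chromosome 13, which had 1 region under control and 2 under overexpression. TGIF2, SKI and SKIL, the other corepressor genes, lie on chromosomes 20, 1 and 3, where both lists had 0. The difference between SMAD2 and SMAD3, partners in the same signal, therefore cannot be told apart from the difference between their chromosomes.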

How the data were processed

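Per the labels' protocols, RNA from IHCF cells was immunoprecipitated with an eIF4G2 antibody and made into libraries with a NEBNext Ultra II RNA kit. The tools listed in the submitters' processing notes are bcl2fastq 2.19.0, Trimmomatic 0.36 and HISAT2 2.1.0, with GRCh38 (hg38) as genome. How regions were called, at what threshold, and whether total RNA or replicates entered the call is not given in the sources used here. Values in the authors' deposited tables are 1-based positions, widths and distances in bp, without normalization, per the file headers. Regions carry no strand.

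The 5 genes, the pathway list, the marker lists and the named genes were chosen with earlier results of these data known. The named genes are the 5 genes, pathway genes with a region, genes under the same regions, neighbouring coding genes and the 3 most like SMAD2 and TGIF1. Pathway genes of chromosomes 4, 10 and 18 and related SMAD and corepressor genes without a region were named beside them. A gene span is the union of its listed Ensembl transcripts, and a region's place is its midpoint. An overlap was at least 1 bp. Backgrounds used the coding genes of RefSeq GRCh38.p14, matched by symbol or older name. The step sizes are the 2 whose multiples held the most region ends of a list. Shares have 95% Wilson intervals, which cover counting error only. The functions for relative position, overlap, merging and step sizes' multiples were tested on simulated data, where each recovered 500 of 500 known values; the other calculations were not. Python 3.11.15, pandas 2.3.3, numpy 2.4.6, scipy 1.17.1 and matplotlib 3.10.9 were used.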

Additional observations from a re-analysis of the deposited data

How the results depend on the processing

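No paired analysis was possible because the tables hold no value per replicate, and for the same reason no replicate could be left out. Of 55 alternative values, 36 stayed close to the main ones. Close meant within a set fold for counts and widths, an equal rank, or a share within the interval of the main value. Some alternatives could not move a value, such as joining neighbours for SMAD1 with 1 region per list. The count of 36 is therefore not a measure of robustness. Joining neighbours within 1000 bp gave SMAD2 6 regions in place of 16, TGIF1 4 in place of 12 and SMAD7 1 in place of 3. With regions of at least 400 bp only, these genes had 8, 3 and 1. SMAD4 kept 1 of 3 regions when those over a second gene were left out. With 1 end on each step size, an alternative chosen after seeing the data, SMAD2 kept 1 region, TGIF1 4, and SMAD4, SMAD7 and the overexpression list for SMAD1 0. Clipped to the gene, the control region of SMAD1 was 736 bp in place of 1160. The median width of the regions on chromosome 18 was 0.880 times that of other genes of the chromosome and 0.512 times that of all other regions in genes. By covered share of the span TGIF1 came before SMAD2. The share of regions in the last 10% of the span ran from 9.68% without SMAD7 to 33.3% without SMAD2, and so depended on single genes. Both lay within the interval of the main value, but that interval treats regions of the same gene as independent. Depth is unknown and sets no limit that could be given.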
